A study of Mus musculus with 8 samples.

Results

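The genes that write, maintain and read DNA methylation were followed in mouse colonic mucosa in which Dnmt1 inhibition was the experimental variable. The group holds 9 of the 16420 genes named on the array, chosen by symbol: the methyltransferases Dnmt1, Dnmt3a and Dnmt3b, the maintenance cofactors Uhrf1, Uhrf2 and Hells, and the methyl-CpG-binding domain genes Mbd1, Mbd2 and Mbd3. Each was represented by 1 row of the Illumina MouseRef-8 v2.0 array, among 18097 rows in all, and 6 of the 9 had signal above background. Transgenic mice were Dnmt1LO/LO and also carried TgVillacIGY; control mice were Dnmt1LO/LO alone, so both genotypes share the Dnmt1LO alleles and no mouse without them was measured. The labels spell out neither name and give no promoter for the transgene. There were 2 transgenic and 2 control mice, all male, 157 days old and of mixed 129Sv/B6/D2 strain. RNA of each mouse was hybridised to 2 arrays, which were averaged into 1 replicate, so n = 2 mice per genotype throughout.

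DNA methylation in mammals sits mainly on the cytosine of CpG dinucleotides. Dnmt3a and Dnmt3b place it on unmethylated DNA, whereas Dnmt1 restores it on the new strand after replication, when Uhrf1 has bound the half-methylated site. In the colon, whose epithelium renews continuously from dividing crypt cells, maintenance has to keep pace with replication, and Dnmt1, Uhrf1 and Hells are known as genes of proliferating cells. Proteins with a methyl-CpG-binding domain then read the mark and bring in co-repressors such as the NuRD complex.

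The start regions of Dnmt1 and Uhrf1, the 2 members whose levels differed most between the genotypes, are shown for the TTTNNCGC motif, a form of the site of the E2F factors that drive S phase genes. RefSeq lists 3 start windows for Dnmt1 and 2 for Uhrf1, each covering 250 bases before to 50 bases after a start (GRCm38.p6). The windows shown, at chr9:20952574-20952873 (minus strand) for Dnmt1 and chr17:56304063-56304362 (plus strand) for Uhrf1, are the CpG-richest of each gene, with 33 CpG each, a count that 8.56% of all 32851 windows reach. They are reference sequences, not the Dnmt1LO allele of these mice. Capitals mark matches to TTTNNCGC on either strand.
Dnmt1: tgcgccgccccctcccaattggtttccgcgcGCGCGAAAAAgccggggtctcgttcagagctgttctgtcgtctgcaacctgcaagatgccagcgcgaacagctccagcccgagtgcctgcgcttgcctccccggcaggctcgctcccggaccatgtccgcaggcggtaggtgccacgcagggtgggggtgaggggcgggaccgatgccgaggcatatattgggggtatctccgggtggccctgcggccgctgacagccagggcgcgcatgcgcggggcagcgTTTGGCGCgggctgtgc
Uhrf1: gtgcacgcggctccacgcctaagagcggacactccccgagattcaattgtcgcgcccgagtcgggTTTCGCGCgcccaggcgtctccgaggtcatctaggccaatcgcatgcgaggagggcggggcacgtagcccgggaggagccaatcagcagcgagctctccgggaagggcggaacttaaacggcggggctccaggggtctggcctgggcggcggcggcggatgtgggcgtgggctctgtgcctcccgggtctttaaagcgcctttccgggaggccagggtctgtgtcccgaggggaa

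The motif was found 3 times in this Dnmt1 window and in neither other Dnmt1 window. Of the 3 matches, 2 overlap (219 and 217 bases before the start that this window covers) and 1 lies after that start. The motif was found once in each Uhrf1 window and once in the Hells window, and in no window of Dnmt3a, Dnmt3b, Uhrf2 or Mbd3. Mbd1 and Mbd2 were not examined. Of all windows, 5.17% hold it. A match describes the letters only.

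The arrays of transgenic mouse 1 were the dimmest. Their mean raw signal was 698 and 753, against 998 and 1019 for transgenic mouse 2 and 866 to 1080 on the control arrays. Rows above background numbered 7469 to 7592 on the transgenic arrays and 7135 to 7510 on the control arrays. A row counted as above background on an array when its signal reached that of the dimmest row with a whole-step detection value (a whole multiple of the smallest step of that column) and a detection p under 0.01, a threshold of 131 to 184 raw units. The 7524 rows above background on at least 4 of 8 arrays were tested with limma, and p-values were adjusted over all of them by Benjamini-Hochberg with a threshold of 0.05. Colon epithelium was clear in all mice: 12 of 13 epithelial markers on the array were tested, among them Vil1, Cdx2 and Krt8, whereas 11 of 15 immune and 15 of 17 stromal markers were above background on no array. Over all tested rows the median gap between the mice of a genotype was 0.31 for transgenic and 0.14 for control mice (log2).

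No member passed the threshold. Over all rows 14 of 7524 did (0.186%), every one of them higher in transgenic mice, and 0 of 6 tested members were among them (limma, adjusted p). At an unadjusted p under 0.05 there were 8.48% of all rows (638), and among the members Dnmt1, which was lower in transgenic mice, and Uhrf1, which was higher. Both transgenic mice lay beyond both control mice in 42.8% of all rows and in 5 of the 6 members (3 with both transgenic mice above, as in 22% of all rows, and 2 with both below, as in 20.8%), so that such separation is common in these data. An exact permutation test over 2 against 2 mice could not reach a two-sided p below 0.333. The raw signals of all members are plotted by mouse.

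**Figure D1:**
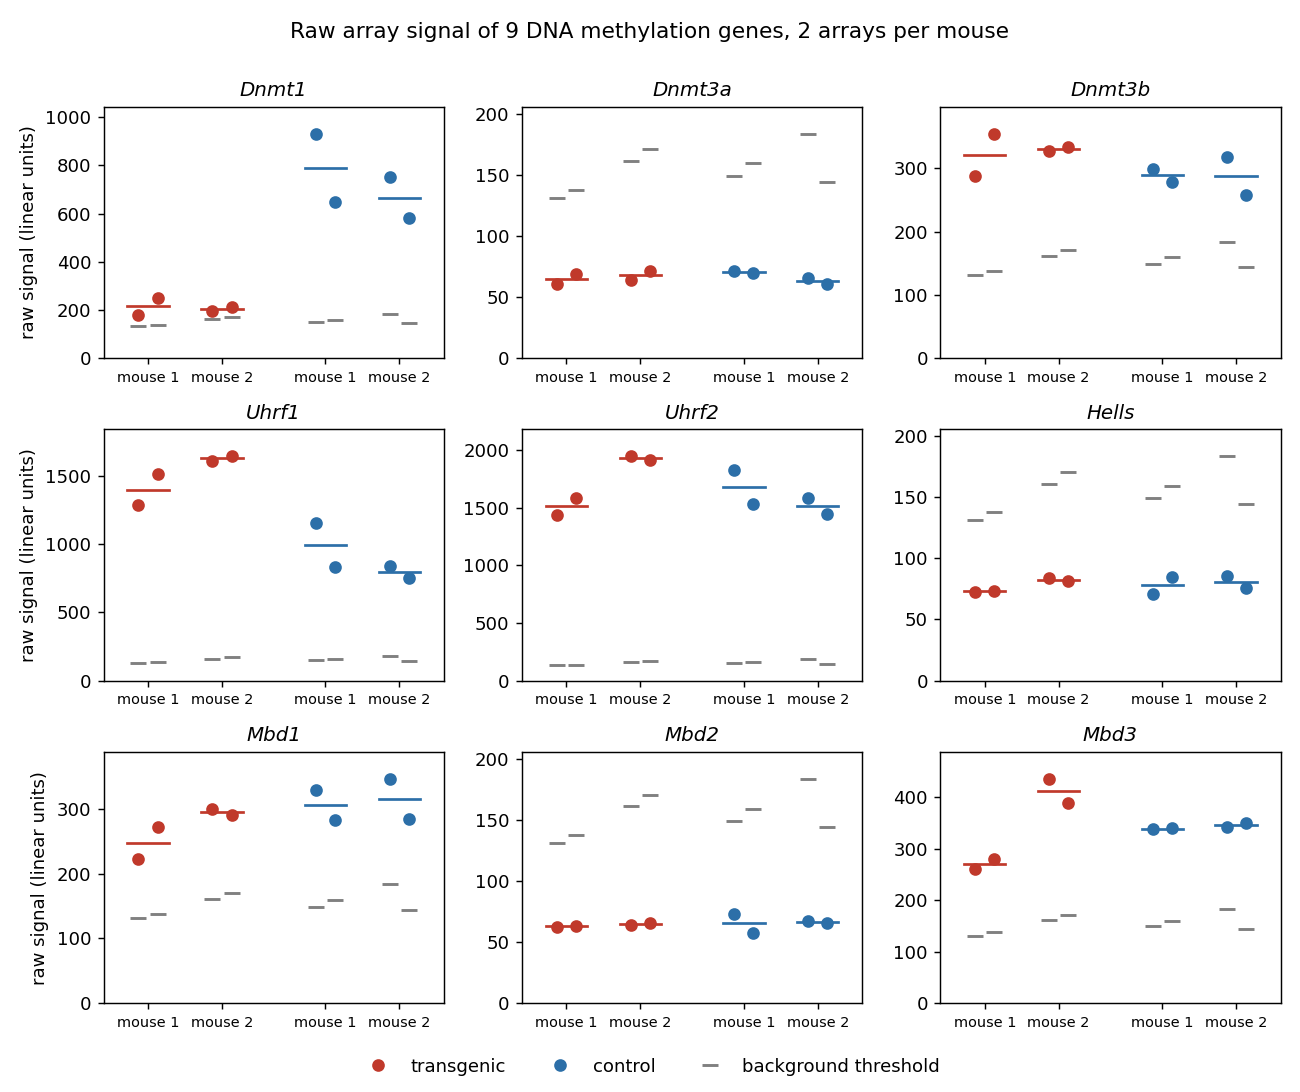
Raw array signal (linear units, axes from 0) of each member in transgenic (red) and control (blue) mice; each point is 1 array, coloured bars are the means of the 2 arrays of a mouse, and grey marks are the background threshold of each array. Dnmt1 is lower and Uhrf1 higher in both transgenic mice, and Dnmt3a, Hells and Mbd2 lie below the threshold on all 8 arrays.

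Dnmt1 (probe ILMN_2720451), the maintenance methyltransferase and the gene named in the study's question, had the lowest relative level in transgenic mice of all members. Its raw signal was 180 and 248 on the arrays of the first transgenic animal and 194 and 212 on those of the second, against 932 and 647 in control mouse 1 and 750 and 580 in control mouse 2. The transgenic and control arrays did not overlap, and the transgenic signals were above the background threshold on all 4 arrays but by little in mouse 2, whose thresholds were 161 and 171. After background correction and quantile normalization the level averaged 7.08 ± 0.48 in transgenic mice and 9.28 ± 0.16 in control mice (log2, SD, n = 2 each). The difference was -2.20 ± 0.28 on the log2 scale (SE; 95% interval -2.93 to -1.46), or 21.8% of the control level. This was 4.58-fold lower, with an interval of 2.75-fold to 7.63-fold, and missed the threshold (limma, adjusted p = 0.116).

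Dnmt1 included, 8 rows, or 0.106% of those tested, had a difference at least as far below 0, and it ranked 43 by p. Of the 2 transgenic mice, mouse 2 was the lower, at -2.54 from the control mean, and mouse 1 was at -1.85. Their gap of 0.68 was matched or exceeded in 18.8% of all rows. The control mice were 0.23 apart. In mucosa as a whole, fewer cells that express Dnmt1 and less Dnmt1 RNA per cell cannot be told apart.

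How large the Dnmt1 difference is depends on background correction. It was -1.73 in the authors' deposited log2 values, where transgenic mice averaged 7.71 and control mice 9.44, and -0.64 when the background was inferred from all rows. In that last setting the inferred background SD was 389 to 682 raw units over the 8 arrays, against 14 to 24 as reported. The Dnmt1 raw signals were 180 to 932, so -0.64 says little about the size of the difference. Adjusted p was 0.0452 with array 1 of each mouse alone and 0.218 with array 2 alone. Without transgenic mouse 1 the difference was -2.54 and without transgenic mouse 2 it was -1.85. Without control mouse 1 or 2 it was -2.08 and -2.31. These fits leave 1 mouse in a genotype, which is assumed to vary like the mice of the other, so only the sizes are given.

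The genes whose levels ran most like that of Dnmt1 over the 4 mice were Hoxd4, Dcn, Nccrp1, Cxcl13 and Nxpe2. Likeness was the root mean square difference between levels centred over the 4 mice. It was 0.19 (log2) for Nccrp1 and 0.34 for Nxpe2, which were above background on all 8 arrays. The chemokine gene Cxcl13, the matrix proteoglycan gene Dcn and the homeobox gene Hoxd4 were above background on 0 transgenic arrays and 4 control arrays, at least 1.85-fold, 2.13-fold and 2.95-fold lower in transgenic mice. Their transgenic levels were not measured, so their likeness to Dnmt1 has no exact value or order. Nccrp1 was at 7.02 in transgenic mice and 9.16 in control mice, and Nxpe2 at 8.48 in transgenic mice and 10.02 in control mice, and neither passed the threshold (limma, adjusted p = 0.0863 and 0.298). Because all 5 were picked for levels like those of Dnmt1, their lower transgenic levels follow from the choice.

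Uhrf1 (ILMN_2517041), which binds half-methylated CpG and brings Dnmt1 to it, was the only member higher in transgenic mice at an unadjusted p under 0.05. Its raw signal was 1285 and 1515 on the arrays of the first transgenic animal and 1615 and 1646 on those of the second, against 1160 and 833 for control mouse 1 and 842 and 751 for control mouse 2. Every transgenic array was brighter than every control array. The level averaged 10.57 ± 0.27 in transgenic mice and 9.61 ± 0.21 in control mice (log2, SD, n = 2 each). The difference was 0.95 ± 0.22 (SE; 95% interval 0.37 to 1.53), or 1.94-fold higher with an interval of 1.3-fold to 2.89-fold, and missed the threshold (limma, adjusted p = 0.336; unadjusted p = 0.0086, as small in 2.57% of all rows).

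The Uhrf1 difference moved little with the processing. It was 0.89 in the authors' deposited values and 0.95 with background from all rows, and over the 16 alternatives that kept the row it ran from 0.76 to 1.14. Without transgenic mouse 2 it was 1.14, with the spread of the control mice alone. In no alternative that kept all 4 mice did it pass. The detection value of this row was 0.580 to 0.895, although its signal was at least 4.59 times the array's threshold. Uhrf1 is among the 4177 rows whose detection values are not whole steps and which look like summaries of several probes. Dnmt3a, Dnmt3b, Uhrf2, Hells and Mbd1 are also among them, so their signals too were held against a threshold from other rows. Of the 4177 rows, 1486 were above the threshold on all 8 arrays, and 396 of the 1486 had a detection p of 0.01 or more on all 8. Whole-step rows give no comparison, because the threshold was itself set from their detection values. A filter on the detection value would leave Uhrf1 and Dnmt3b untested.

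Uhrf2 (ILMN_1219262), the paralogue of Uhrf1, differed by about the gap of 0.24 (log2) between the transgenic mice. Its raw signal was 1435 and 1584 on the arrays of the first transgenic animal and 1944 and 1913 on those of the second, against 1829 and 1533 for control mouse 1 and 1584 and 1443 for control mouse 2. The raw signals of the genotypes overlapped. The normalized level was 10.75 ± 0.17 in transgenic mice and 10.50 ± 0.10 in control mice (log2, SD, n = 2 each), a difference of 0.25 with a 95% interval of -0.23 to 0.73 (limma, adjusted p = 0.725). The upper end of that interval is a 1.66-fold higher level.

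Hells (ILMN_2672461), a chromatin remodeller needed for methylation of repeats, was not above background. Its raw signal was 72.7 to 83.8 on the transgenic arrays and 70.6 to 85.2 on the control arrays, under the threshold on all 8. No difference could be measured for it.

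Of the de novo methyltransferases, Dnmt3b was measurable and Dnmt3a was not. Dnmt3b (ILMN_3114377) gave raw signals of 287 and 355 on the arrays of the first transgenic animal and 327 and 333 on those of the second, against 299 and 279 for control mouse 1 and 318 and 258 for control mouse 2. Its normalized level was 8.26 and 7.75 in the transgenic mice, against 7.74 and 7.73 in the control mice, so the mean difference of 0.27 (95% interval -0.33 to 0.86; limma, adjusted p = 0.763) came almost wholly from the first of the transgenic mice. The other one was 0.01 above the control mean, and its own arrays were at 7.77 and 7.73. The Dnmt3a row (ILMN_1256464), annotated to the cDNA AK086254, had raw signals of 60.2 to 71.1 on transgenic arrays and 60.8 to 71.2 on control arrays. All 8 were below the threshold, so that neither a higher nor a lower level was detectable in that row.

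Among the readers, Mbd1 binds methylated CpG and Mbd3, a NuRD subunit, has lost most of that binding in mammals. Mbd1 (ILMN_2543657) gave raw signals of 222 and 272 on the arrays of the first transgenic animal and 299 and 291 on those of the second, against 329 and 284 for control mouse 1 and 346 and 285 for control mouse 2. Both transgenic mice were the lower, at 7.75 and 7.53, with the control mice at 7.85 and 7.90 (log2). The difference was -0.24 with a 95% interval of -0.70 to 0.22 (limma, adjusted p = 0.725).

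Mbd3 (ILMN_2730498) had the smallest difference of the 6. Its raw signal was 260 and 280 on the arrays of the first transgenic animal and 436 and 389 on those of the second, against 338 and 341 for control mouse 1 and 343 and 351 for control mouse 2. The transgenic mice lay on either side of the controls before normalization and at 7.95 and 8.15 after it, against 8.04 and 8.09 in control mice. The difference of -0.02 had a 95% interval of -0.47 to 0.43, that is 0.72-fold to 1.35-fold (limma, adjusted p = 0.981). Mbd2 (ILMN_2676806), the methyl-CpG-binding subunit that can take the place of Mbd3 in NuRD, had raw signals of 62.7 to 65.9 on transgenic arrays and 57.6 to 73.2 on control arrays, below the threshold on all 8.

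**Figure D2:**
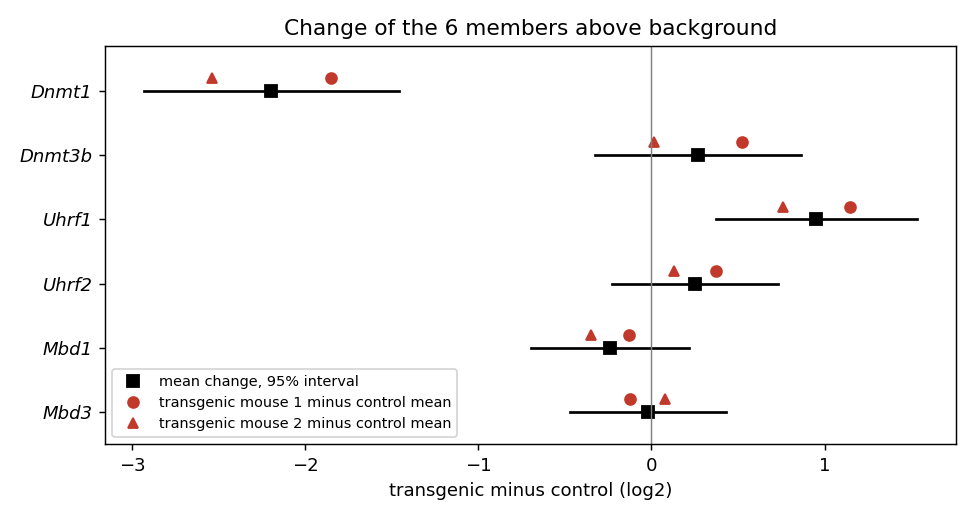
Difference between transgenic and control mice (log2, horizontal axis) for the 6 members above background. Squares are means with 95% intervals of the limma fit, not adjusted for the number of rows; circles and triangles are transgenic mice 1 and 2 minus the control mean. The intervals of Dnmt1 (-2.93 to -1.46) and Uhrf1 (0.37 to 1.53) do not reach 0.

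Dnmt1 and Uhrf1 lay on opposite sides of 0, and the related gene lists are given beside them. No gene of the 7 related lists passed the threshold in either direction (limma, adjusted p under 0.05; 0.186% of all rows did), and the median difference over all rows tested was -0.01. Maintenance partners, a mixed list not limited to proteins of the replication fork, had a median of 0.07 over 7 genes tested of 11 listed. Their differences ran from -0.35 to 0.64. Those with the smallest p were Lig1, the DNA ligase of lagging-strand synthesis (0.64, adjusted p = 0.436), and Cdca7, which recruits Hells (0.64, adjusted p = 0.610).

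Demethylation genes had a median of -0.35 over 4 genes tested of 11 listed. The stress-induced Gadd45b was at 6.86 in both transgenic mice, against 7.80 and 7.92 in the control mice, a difference of -1.01 ± 0.16 (SE; limma, adjusted p = 0.178). Gadd45a was at 8.82 and 9.63 in transgenic mice, against 9.97 and 10.31 in control mice, a difference of -0.91 (adjusted p = 0.549). Both Gadd45 genes were lower in both transgenic mice, whereas the glycosylase gene Smug1 and the repair endonuclease gene Apex1, added after their values were seen, were at 0.20 and 0.41.

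Genes that supply the methyl donor had a median of 0.07 over 9 of 16, with the folate enzyme Mthfd1 at 0.45 and the methionine adenosyltransferase subunit Mat2b at -0.50 (adjusted p = 0.630 and 0.641). NuRD genes had a median of 0.19 over 6 of 13, with Gatad2b at 0.74 and Mta2 at 0.37 (adjusted p = 0.641 and 0.650), and Gatad2b was above background on 4 transgenic arrays and 1 control array. Co-repressors had a median of 0.04 over 5 of 12. Among these Atf7ip, the partner of the histone methyltransferase Setdb1, was at 10.04 and 9.99 in transgenic mice, against 9.18 and 9.30 in control mice, a difference of 0.78 ± 0.17 (SE; adjusted p = 0.268), and Trim28 was at 0.57. Other methyl-CpG readers had 4 genes tested of 10, of which the 2 above background on all 8 arrays, Klf4 and Zbtb33, named after their values were seen, were at -0.47 and -0.07. Mbd6 and the glycosylase gene Mbd4 were at 0.34 and 0.33 (adjusted p = 0.658 and 0.775), but were above background on 4 of 4 transgenic arrays and 1 of 4 control arrays, so these differences rest on control levels near background.

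No gene of S phase and division passed the threshold, though most of those tested were at higher levels in transgenic mice. Of 28 listed, 23 were on the array and 16 were tested. The 14 above background on all 8 arrays had differences from 0.10 (the clamp loader gene Rfc4) to 0.96, with a median of 0.70. In 13 of these the lower transgenic mouse was above the higher control mouse, as for 22% of all rows, and at an unadjusted p under 0.05 there were 10 higher and 0 lower, against 4.53% and 3.95% of all rows. The cyclin gene Ccne1, above background on 3 transgenic arrays and 1 control array, was at -0.04. The replicative helicase subunit Mcm6 was at 9.45 and 9.19 in transgenic mice, against 8.29 and 8.43 in control mice, a difference of 0.96 (limma, adjusted p = 0.223). Its partner Mcm7 was at least 1.31-fold higher and was above background through the transgenic arrays alone. The summed background-corrected signal of the 23 genes was 13047 and 16344 in transgenic mice, against 11087 and 8849 in control mice. This sum and those of the marker lists below were not normalized between arrays. The part of these genes in the Uhrf1 difference was not tested. Of the 15 tested genes with a RefSeq start window, 5 (33.3%) held TTTNNCGC, against 5.93% of all genes. Of the 7 members examined, Dnmt1, Uhrf1 and Hells did. The motif holds a CpG and the median of all windows was 7 CpG, and these shares were not matched for CpG content. The S phase list was chosen by function, and E2F factors drive S phase genes, so its higher share could come from that choice. A link between the motif and the differences was not tested.

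**Figure D3:**
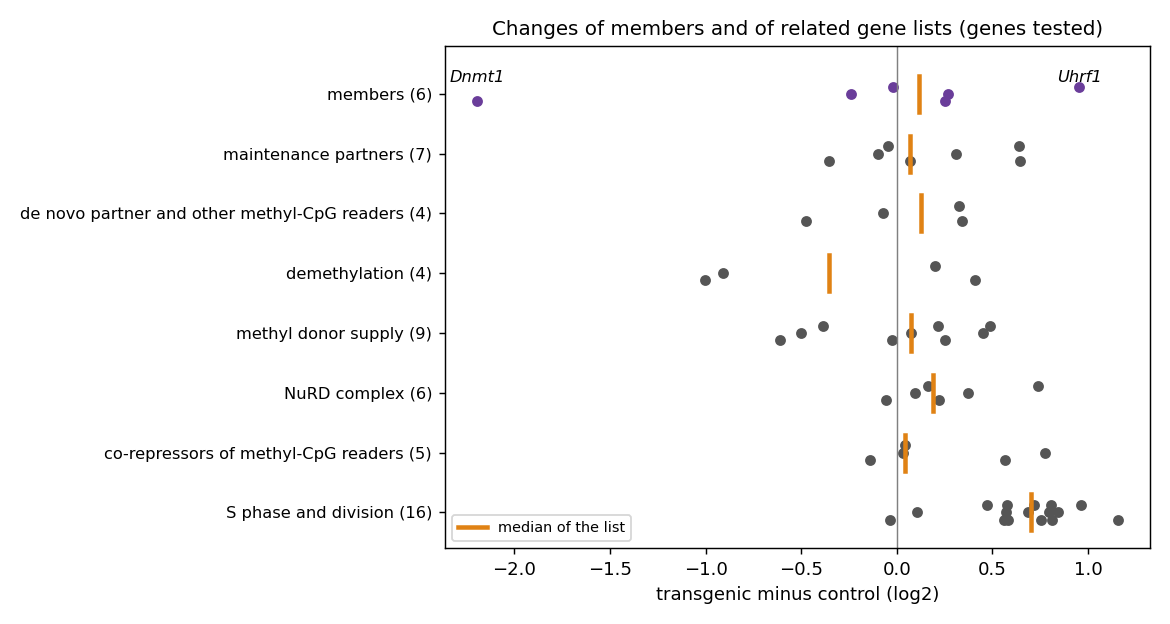
Difference between transgenic and control mice (log2, horizontal axis) of each gene tested in the member list and 7 related lists, with the number of genes in brackets; orange bars are list medians and vertical offsets within a list only separate points. Uhrf1 (0.95) lies near the upper end of the S phase and division genes (median 0.70), and Dnmt1 (-2.20) lies below every other gene shown. Genes above background on only some arrays, such as Mcm7 (0 control arrays), are drawn at fitted differences and count in the medians.

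No marker of another cell type passed the threshold, and their values are given beside those of Dnmt1 and Uhrf1. Of 14 tuft cell markers on the array 10 were tested. Those above background on all 8 arrays were 5, with differences from 1.46 to 2.19 and both transgenic mice above both control mice in each, as in 22% of all rows; Gng13 and Dclk1 were at 1.99 and 1.66 (limma, adjusted p = 0.0968 and 0.140). The other 5 entered through the transgenic arrays, where they were brighter: Alox5, Hpgds and Gnat3 were above background on 0 control arrays, Trpm5 on 1 and Chat on 3. The summed signal of the list was 6797 and 5969 in transgenic mice, against 1711 and 1743 in control mice.

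Epithelial markers had a median of -0.10, at -0.36 and 0.08 in the first and second transgenic mouse, with the trefoil gene Tff3 at -0.77 and the water channel gene Aqp8 at -1.85 (limma, adjusted p = 0.356 and 0.610). Their summed signal was 103163 and 199300 in transgenic mice, against 195568 and 198769 in control mice. The sums were not normalized, and the arrays of transgenic mouse 1 were dim over all rows, with a mean raw signal of 698 and 753. The part of array brightness in its sums was not tested. After normalization Aqp8 was at -3.05 from the control mean in the first transgenic mouse and -0.65 in the second. Krt20, Car4 and Krt19, named after their values were seen, were at -2.34, -2.72 and -1.21 in the first. In the second they were at 0.10, -0.04 and 0.11. Cdh1, Cdx1, Cdx2 and Krt18 were above the control mean in the first, at 0.16, 0.13, 0.02 and 0.37. Immune markers lay on both sides of 0. Laptm5, a lysosomal membrane gene of leukocytes and the only one of the 4 tested that was above background on all 8 arrays, was at 10.75 and 8.88 in transgenic mice, against 9.29 and 9.24 in control mice (adjusted p = 0.813). The T cell genes Cd3g and Cd3e were at -0.78 and -1.0 (adjusted p = 0.490 and 0.513) and Coro1a at -0.27, each above background on 2 of 4 transgenic arrays. Summed signals of immune markers were 1591 and 989 in transgenic mice, against 1134 and 1113 in control mice. Of the 2 stromal markers tested, Dcn is given above and Vwf, a gene of vessel endothelium, was at 2.96 (adjusted p = 0.0863). The summed stromal signal was 1857 and 1637 in transgenic mice, against 643 and 563 in control mice, where Vwf alone was above background in transgenic mice. The part of cell composition in the Dnmt1 and Uhrf1 differences was not tested.

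**Figure D4:**
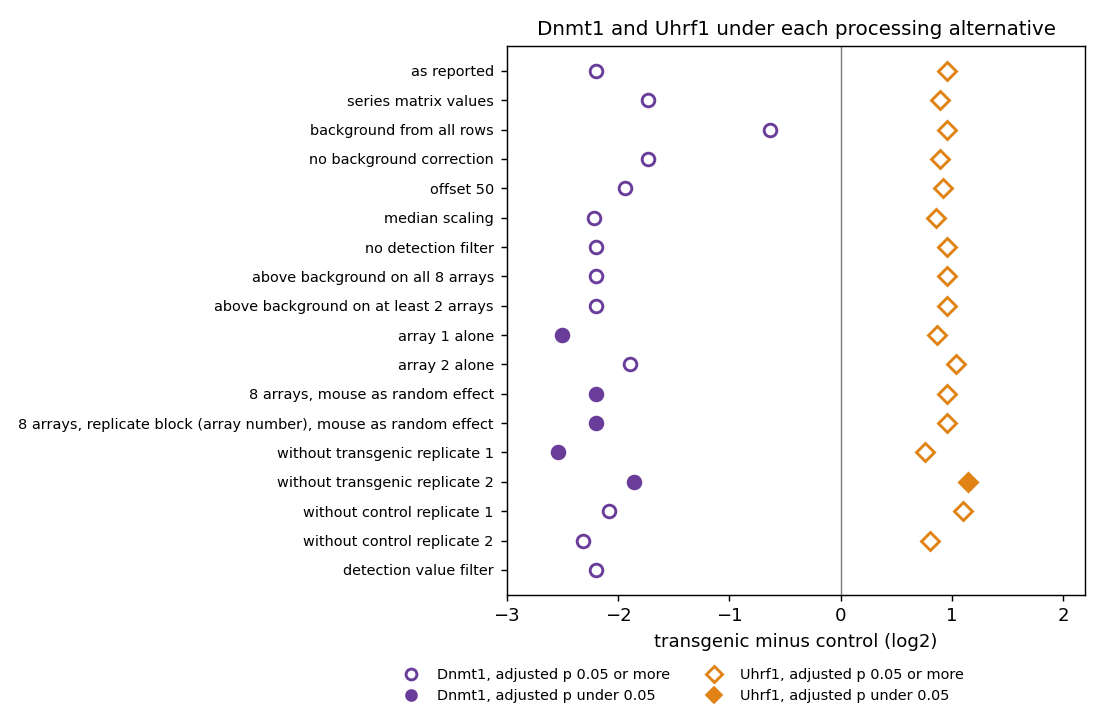
Difference between transgenic and control mice (log2, horizontal axis) for Dnmt1 (circles) and Uhrf1 (diamonds) as reported and under each alternative; filled symbols have an adjusted p under 0.05. Dnmt1 runs from -2.54 to -1.73, or -0.64 with background from all rows, and Uhrf1 from 0.76 to 1.14, with no change of sign. Where 1 mouse is left out, the spread within its genotype is not measured.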

How the data were processed

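Total RNA of colonic mucosa was hybridised to 8 arrays, 2 for each of 4 mice. The deposited table holds linear intensity values without normalization between arrays, with a detection column beside each. That column is a fraction which per the file headers is a p-value; since it is highest for the brightest rows, it was taken as 1 minus p. Log2 values deposited in the series matrix matched quantile normalization of these intensities within 0.0146. BeadStudio and Partek are named per the submitters' processing notes; how beads and probes were summarised is not given in the sources used here. Rows were named through the platform annotation.

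Background was corrected with normexp (limma 3.58.1, R 4.3.3), its mean and SD inferred from the 13920 rows whose detection values are whole multiples of the smallest step (within 0.005 of a step), with an offset of 16, then quantile normalization and log2. The 2 arrays of a mouse were averaged. Differences are transgenic minus control, two-sided, from lmFit and eBayes over 7524 rows; the offset understates changes of dim rows. The filter on signal, used in place of one on detection values, was chosen after the values were seen. Where a row was above background on no array of a genotype, the fold is a bound: the brighter genotype's mean against the dimmer one's, where each dim array counts at its lowest value above background if the row is below that. Members and lists were chosen with earlier results of these data known. Named genes are the members, the 2 tested genes of smallest p in each list, as none passed, and the 5 nearest to Dnmt1; a gene with several rows is represented by its brightest. Precision is limited by there being 2 mice per genotype.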

Additional observations from a re-analysis of the deposited data

How the results depend on the processing

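Dnmt1 kept its sign in all 17 alternatives, as did Uhrf2 and Mbd1, and Uhrf1 and Dnmt3b in the 16 that tested them. Among fits with all 4 mice, Dnmt1 passed the threshold at -2.50 with array 1 of each mouse alone. Dnmt1 also passed at -2.20 with all 8 arrays and the mouse as a random effect (limma, adjusted p = 0.005). With the array number added as a replicate block it passed likewise (-2.20, limma, adjusted p = 0.0127). Leaving out 1 mouse at a time, it ran from -2.54 to -1.85. The replicate numbers shared by the labels name the 2 arrays of a mouse and pair no mice, and fits of 8 arrays take degrees of freedom from arrays. Mbd3 turned positive with array 1 alone (0.19), without transgenic mouse 1 (0.079) and without control mouse 2 (0.00197), and with 1 mouse left out it ran from -0.12 to 0.079.

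The number of members that passed was 1 with array 1 alone, where 20 of 7524 rows passed, and 1 in both fits of 8 arrays. Over all rows, against the 14 reported, 6 passed with series matrix values or with no background correction, 0 with background from all rows (604 at an unadjusted p under 0.05, limma), 2 with no filter, 1 with rows above background on all 8 arrays and 9 with the filter on detection values, chosen after seeing the data. The background SD inferred from all rows was 389 to 682 raw units, against 14 to 24 as reported. With 8 arrays 210 passed, or 162 with the replicate block, and from 0 to 1040 with 1 mouse left out. The causes were not tested. Signals of Dnmt1 near the background in transgenic mouse 2, and of Dnmt3a, Hells and Mbd2 below it, limit what these arrays show.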
